A study of Mus musculus with 13 samples.

Results

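Histamine is made from histidine by a single enzyme and is then removed by methylation, by oxidation or by uptake into cells. The 4 mouse genes described here are Hdc (histidine decarboxylase, the enzyme that makes histamine), Hnmt (histamine N-methyltransferase, which inactivates histamine inside cells), Aoc1 (diamine oxidase, which oxidizes histamine and other diamines) and Slc22a3 (an organic cation transporter that carries histamine across the plasma membrane). They were taken by symbol from a table of 35013 genes, and all 4 were among the 16468 genes with enough counts to be tested. The set was selected on the measured fold change of Hdc over WT, since Hdc was among the genes with the largest increases in both models of iron misregulation studied here. The rise of Hdc over WT is therefore given as a description with no test, whereas the other 3 genes were tested with the whole table.

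The 13 libraries came from kidneys of female mice: 4 bear the label Spns1 KO, 5 WT and 4 iron overload (FeO). All mice carried Megalin3'Cre-Ert, a tamoxifen-inducible Cre driven by the promoter of megalin, the endocytic receptor of the proximal tubule, and 1 floxed Uprt allele (Uprt flox/+), which lets recombined cells build injected 4-thiouracil into new RNA. The tagged RNA was captured on streptavidin, selected for poly-A and sequenced. Tamoxifen was given to the mouse pairs in parallel, and the methods name C57Bl6 mice. Spns1 encodes a transporter of the endosomal and lysosomal membrane. According to the methods, the Spns1 KO mice were Spns1 flox/flox and the WT mice were Spns1 flox/+ littermates, so the controls also carried 1 floxed Spns1 allele, although their labels read Spns1 WT. The FeO mice had the WT genotype and received 12 mg of iron, injected as iron sucrose, on each of 3 days, with kidneys taken 1 week later. The age of the mice was not given in the sources used here. Nothing in the labels says whether libraries of a group came from separate mice, so a p-value measures only the spread between these libraries.

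Before the histamine genes were examined, the libraries were checked against their labels. Total counts ran from 23068023 to 71296474 per library. Spns1 itself ranged from 36.6 to 59.0 CPM (counts scaled to a common library size of 1e+06) in the libraries labelled Spns1 KO and from 39.2 to 62.9 CPM in WT (log2 fold change -0.31, standard error 0.18, edgeR adjusted p = 0.225), so its counts did not separate these groups. The counts cover all its exons, whereas by the methods the loxP sites flank 1 exon, and the WT mice also carried a floxed allele. The paper reports loss of Spns1 RNA and protein in proximal tubules of Spns1 flox/flox mice with this Cre. The 12 proximal tubule markers summed to between 2494 and 8772 CPM per library, and markers of the loop of Henle, distal tubule, podocytes and endothelium were present in every library. WT 1 and WT 2 were the most alike of all 22 replicate pairs, but differed by more than sampling noise (chi-square of 2.17 per gene, where 1 would be sampling noise) and were kept as separate libraries. Averaging them as 1 library changed no call for the 4 genes.

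Mast cells and basophils are the classical sources of histamine, which they store in granules and release on activation. Other cells make it on demand without storing it, and the mouse kidney is one of the organs with histidine decarboxylase activity outside mast cells. Histamine acts on a family of G protein-coupled receptors, and Aoc1 turns it into an aldehyde. Hnmt instead yields methylhistamine, from which monoamine oxidase makes an aldehyde, and aldehyde dehydrogenases oxidize both aldehydes further.

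The genes lie apart in the genome (GRCm38). Hdc spans chr2:126593667-126619299 and Hnmt spans chr2:24002910-24049394, both on the minus strand, Aoc1 spans chr6:48872896-48909188 on the plus strand, and Slc22a3 spans chr17:12418960-12507704 on the minus strand. Slc22a3 lies next to the related carrier Slc22a2 (chr17:12584132-12628488). Of the different stretches of 31 bases in all annotated transcripts of Slc22a3, 8.69% also occur in transcripts of other genes, mainly Plg on the opposite strand. The share was 1.39% for Aoc1, 0.487% for Hdc and 0% for Hnmt. Because the strand setting of the counting is not given in the sources used here, reads of Slc22a3 and Plg in their shared exons cannot be told apart.

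The promoters of Hdc and Aoc1 are shown because these genes had the largest fold changes of the 4. Each sequence is the 250 bases before a RefSeq transcription start (build GRCm38.p6), written 5′ to 3′ on the strand of the gene. Capitals mark matches on either strand to GGGCGG (GC box), TATAAA (the core promoter box), TGACTCA (AP-1 site), CACGTG (E-box) and TGTTCT (an element of steroid receptor sites), and this set was chosen after the sequences were seen. The Hdc window is chr2:126618679-126618928 (minus strand). Aoc1 has 2 listed starts, with windows chr6:48895005-48895254 and chr6:48904736-48904985 (plus strand). Each window lies inside the span given above for its gene, so the start of that span lies further upstream and its promoter is not shown.
Hdc: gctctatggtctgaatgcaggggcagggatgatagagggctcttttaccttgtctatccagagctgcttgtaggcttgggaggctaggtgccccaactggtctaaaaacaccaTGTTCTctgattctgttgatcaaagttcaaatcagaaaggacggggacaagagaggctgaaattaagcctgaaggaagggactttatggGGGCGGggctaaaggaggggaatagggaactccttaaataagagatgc
Aoc1, upstream start: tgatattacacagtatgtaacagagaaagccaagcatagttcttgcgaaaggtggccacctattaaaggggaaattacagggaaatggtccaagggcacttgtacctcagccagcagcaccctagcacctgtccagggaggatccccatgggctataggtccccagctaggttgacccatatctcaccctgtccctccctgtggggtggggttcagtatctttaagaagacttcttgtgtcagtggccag
Aoc1, downstream start: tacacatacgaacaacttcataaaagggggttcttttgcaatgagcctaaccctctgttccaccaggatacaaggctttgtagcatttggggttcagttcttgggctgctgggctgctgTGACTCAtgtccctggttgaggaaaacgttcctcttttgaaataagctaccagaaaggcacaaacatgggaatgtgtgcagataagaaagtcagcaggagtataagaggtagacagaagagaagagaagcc
The Hdc window held 1 GC box, 48 to 43 bases before the start, and 1 TGTTCT, 137 to 132 bases before it. The window of the downstream Aoc1 start held 1 AP-1 site, 131 to 125 bases before the start, and the other Aoc1 window held none of the 5 motifs. Over all 32851 such windows of the RefSeq table, 32.7% held the GC box, 12.4% TATAAA, 4.46% the AP-1 site, 6.02% the E-box and 16.1% TGTTCT. These matches describe letters and do not show that any factor binds there.

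Hdc, the gene of histamine synthesis, was several-fold higher in both models. The WT libraries 1 to 5 held 1.61, 2.16, 1.73, 1.87 and 1.66 CPM. The libraries labelled Spns1 KO 1 to 4 held 11.9, 4.98, 10.5 and 9.67 CPM, and the FeO libraries 1 to 4 held 4.95, 10.3, 12.4 and 14.6 CPM. Every library of either model lay above every WT library, with Spns1 KO 2 and FeO 1 the lowest of their groups. Of all genes tested, 13.1% lay above WT in this way in the libraries labelled Spns1 KO and 16.9% in FeO. Hdc was chosen for its rise, so this lack of overlap is a description only. In bulk libraries such as these, a different number of cells of a type and a different amount of RNA per cell cannot be told apart. These levels rest on 43 to 70 counts in WT, 184 to 799 in the libraries labelled Spns1 KO and 151 to 389 in FeO.

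The mean level of Hdc was 1.81 ± 0.22 CPM in WT (SD, n = 5), 9.25 ± 3.00 CPM (SD, n = 4) under the Spns1 KO label and 10.6 ± 4.13 CPM in FeO (SD, n = 4). The fitted change over WT was 5.12-fold in the libraries labelled Spns1 KO (log2 fold change 2.36, standard error 0.30) and 5.84-fold in FeO (2.55, standard error 0.30). By log2 fold change Hdc ranked 50th of the 16468 genes in the former and 63rd in the latter, and 28th by the smaller of both. Both comparisons share the same WT libraries, and both rises were used in choosing the gene. For orientation, 14.0% of all genes tested were upregulated in the libraries labelled Spns1 KO and 22.4% in FeO, where upregulated means an edgeR adjusted p under 0.05 and a log2 fold change above 0.5. Between the models the difference in Hdc was -0.19 on the log2 scale (95% interval -0.83 to 0.45, adjusted p = 0.693, edgeR's quasi-likelihood test), and the groups overlapped. The interval reaches beyond 0.5 on the FeO side, so a higher level in FeO of that size cannot be told apart from an equal one, and without Spns1 KO 2 the difference was 0.017.

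**Figure D1:**
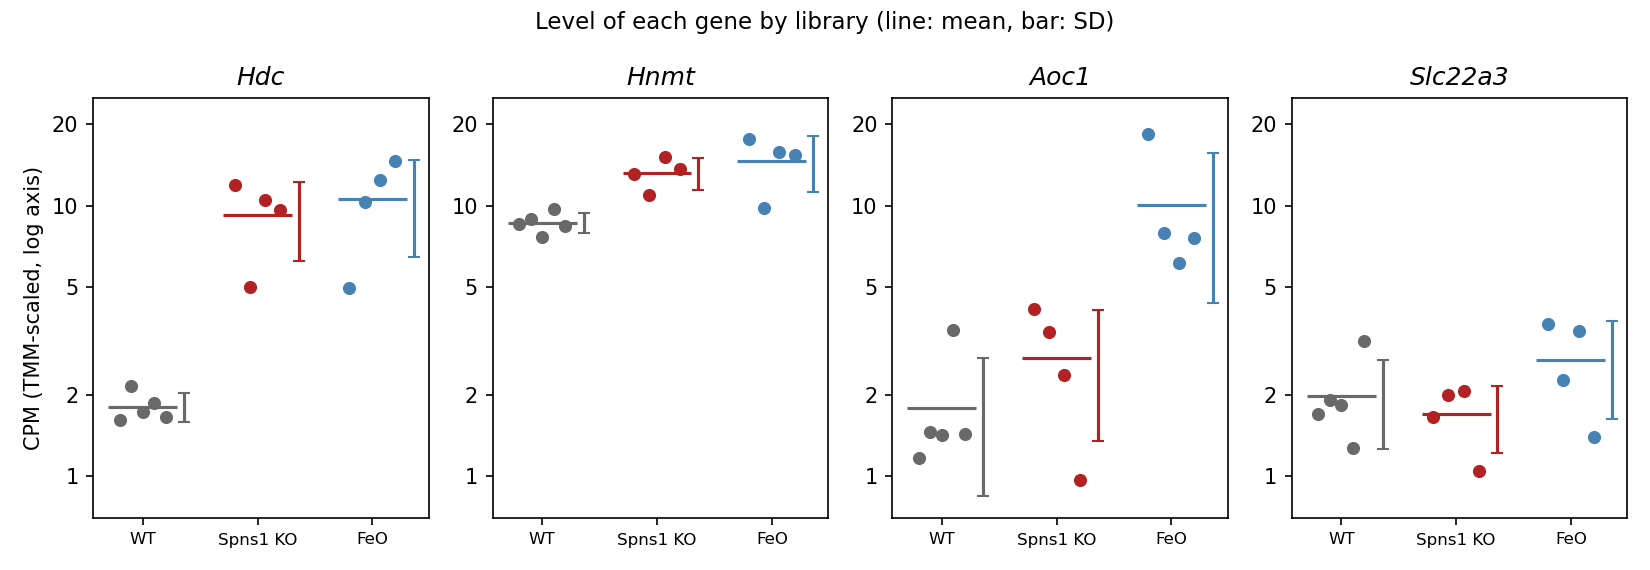
Level of Hdc, Hnmt, Aoc1 and Slc22a3 in each of 13 kidney libraries, in CPM on a log axis, with the group mean (line) and SD (bar beside the points). Hdc and Hnmt lay above every WT library in both models, Aoc1 did so in FeO, and the groups overlapped for Slc22a3. Of all genes tested, 13.1% lay above WT without overlap in the libraries labelled Spns1 KO and 16.9% in FeO.

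Hnmt, the main enzyme of histamine inactivation inside cells, rose in both models by less than Hdc. WT libraries 1 to 5 held 8.55, 8.90, 7.65, 9.68 and 8.42 CPM. The libraries labelled Spns1 KO held 13.1, 10.9, 15.1 and 13.7 CPM, and the FeO libraries held 17.7, 9.80, 15.8 and 15.4 CPM. No library of either model fell within the WT range, although FeO 2 exceeded WT 4 by little. Of all genes tested, 13.1% lay above WT without overlap in the libraries labelled Spns1 KO and 16.9% in FeO, and 9.38% were upregulated in both.

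The rise of Hnmt was 1.53-fold in the libraries labelled Spns1 KO (log2 fold change 0.61, standard error 0.18, edgeR adjusted p = 0.0212) and 1.70-fold in FeO (0.76, standard error 0.18, edgeR adjusted p = 0.00328). The first of these calls was lost when Spns1 KO 1, Spns1 KO 3 or WT 3 was left out (adjusted p = 0.0554, 0.0786 and 0.0528 in edgeR) and when trends on transcript length and GC content were removed (log2 fold change 0.47, adjusted p = 0.0779). The FeO call held in each of the 13 fits that left out 1 library. The models differed by -0.15 (95% interval -0.55 to 0.24, edgeR adjusted p = 0.60), which excludes a difference of 1 on the log2 scale but not one of 0.5 in favor of FeO.

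Aoc1, which oxidizes histamine outside cells and in the gut and kidney also acts on putrescine, rose in FeO and not past the thresholds in the libraries labelled Spns1 KO. The WT libraries held 1.17, 1.45, 1.42, 3.46 and 1.43 CPM, with WT 4 above the rest. FeO libraries 1 to 4 held 18.4, 7.95, 6.15 and 7.57 CPM, with FeO 1 far above the others. All lay above every WT library, as did 16.9% of all genes tested. In the libraries labelled Spns1 KO the levels were 4.16, 3.41, 2.37 and 0.967 CPM, a range that contained that of all WT libraries.

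The fitted rise of Aoc1 in FeO was 5.62-fold (log2 fold change 2.49, standard error 0.44, edgeR adjusted p = 0.000726), from 1.79 ± 0.944 CPM in WT (SD, n = 5) to 10.01 ± 5.62 CPM (SD, n = 4). It stayed between 2.04 and 2.89 on the log2 scale in the fits that left out 1 library. At 2.73 ± 1.38 CPM (SD, n = 4) under the Spns1 KO label, the log2 fold change was 0.62 (95% interval -0.30 to 1.54, edgeR adjusted p = 0.309). The interval includes a rise of 1, so a change of that size was not detectable rather than absent.

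The models themselves differed in Aoc1, with every library labelled Spns1 KO below every FeO library (log2 difference -1.87, standard error 0.46, 95% interval -2.84 to -0.90, edgeR adjusted p = 0.0153). Downregulation of this kind between the models was called for 8.10% of all genes tested, and 9.10% lay lower without overlap. The difference depended on FeO 1: without that library it was -1.40, with an edgeR adjusted p of 0.0596. Leaving out both FeO 1 and Spns1 KO 4 gave -1.12 between the models (edgeR adjusted p = 0.08), and in the same fit the rise of Aoc1 in the libraries labelled Spns1 KO was 0.91 over WT (edgeR adjusted p = 0.0398).

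Slc22a3, the carrier, did not pass the thresholds in any comparison. The WT libraries held 1.69, 1.91, 1.83, 1.27 and 3.17 CPM. The libraries labelled Spns1 KO held 1.65, 2.00, 2.07 and 1.04 CPM, and FeO 1 to 4 held 3.64, 2.27, 3.43 and 1.39 CPM. The 3 groups overlapped, and only FeO 1 and FeO 3 exceeded every WT library. The log2 fold change over WT was -0.22 in the libraries labelled Spns1 KO (95% interval -0.93 to 0.49, edgeR adjusted p = 0.652) and 0.45 in FeO (95% interval -0.26 to 1.15, edgeR adjusted p = 0.279). With 36 to 111 counts per library, these intervals still hold a fall of 0.5 in the libraries labelled Spns1 KO and a rise of 1 in FeO.

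Levels of different genes were compared per kilobase of the longest transcript. In WT, Hnmt was the highest of the 4 at 5.22 ± 0.446 CPM per kb (SD, n = 5), followed by Aoc1 at 0.631 ± 0.333, Slc22a3 at 0.478 ± 0.173 and Hdc at 0.400 ± 0.0489 CPM per kb. Only Hnmt stood clear of its neighbor in this order, as the ranges of Aoc1, Slc22a3 and Hdc overlapped. In the libraries labelled Spns1 KO the order was Hnmt (7.97 ± 1.06), Hdc (2.05 ± 0.664), Aoc1 (0.963 ± 0.489) and Slc22a3 (0.409 ± 0.114 CPM per kb; SD, n = 4), and again only Hnmt did not overlap with the next gene. In FeO it was Hnmt (8.86 ± 2.05), Aoc1 (3.54 ± 1.99), Hdc (2.34 ± 0.915) and Slc22a3 (0.650 ± 0.255 CPM per kb; SD, n = 4), and only Slc22a3 was clear of its neighbor. Hdc thus went from the lowest mean of the 4 genes in WT to above Slc22a3 in each library of both models, and Hnmt kept the highest mean in every group.

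The levels of cell markers were set beside those of the 4 genes. The proximal tubule marker sum was 3609 to 4869 CPM in WT, 7438 to 8772 CPM in the libraries labelled Spns1 KO and 2494 to 5898 CPM in FeO. Of the 12 markers, 8 rose in the libraries labelled Spns1 KO and none fell, whereas in FeO 2 rose and 1 fell. Of all genes tested, 14.0% rose and 7.55% fell in the libraries labelled Spns1 KO, and 22.4% rose and 19.7% fell in FeO. FeO 1 had the lowest sum of all 13 libraries and the lowest Hdc level of its group.

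Per 1000 CPM of these markers, Hdc was 0.331 to 0.473 CPM in WT, 0.670 to 1.36 CPM in the libraries labelled Spns1 KO and 1.78 to 3.63 CPM in FeO. These ranges did not overlap, but Hdc was chosen for its rise over WT, and in CPM the models overlapped. The divisor was larger in every library labelled Spns1 KO than in any other library. How many of all genes separate on this scale was not counted. On the same scale Hnmt was 1.76 to 2.33 CPM in WT, 1.47 to 1.87 CPM in the libraries labelled Spns1 KO and 1.69 to 7.10 CPM in FeO. Its rise in the libraries labelled Spns1 KO was thus not larger than that of the proximal tubule markers, and the part of the markers in the rise was not tested further. Aoc1 was 0.240 to 0.755 CPM per 1000 CPM of markers in WT and 1.04 to 7.38 CPM in FeO, without overlap, and 0.121 to 0.474 CPM in the libraries labelled Spns1 KO. Slc22a3 was 0.277 to 0.878 CPM per 1000 CPM of markers in WT, 0.131 to 0.269 CPM in the libraries labelled Spns1 KO and 0.346 to 1.46 CPM in FeO. The libraries labelled Spns1 KO thus lay below every WT library on this scale, where their divisor was larger. In CPM, Slc22a3 overlapped between these groups and was not called.

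Markers of other segments moved with the outlying Aoc1 values in part. FeO 1 and WT 4, the libraries with the highest Aoc1 level of their groups, also had the highest sums of distal tubule and collecting duct markers in these groups (3390 and 2329 CPM). Spns1 KO 4, with the lowest Aoc1 level of all libraries, had the highest such sum of its group as well (2460 CPM). The part of these markers in the Aoc1 values was not tested.

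**Figure D2:**
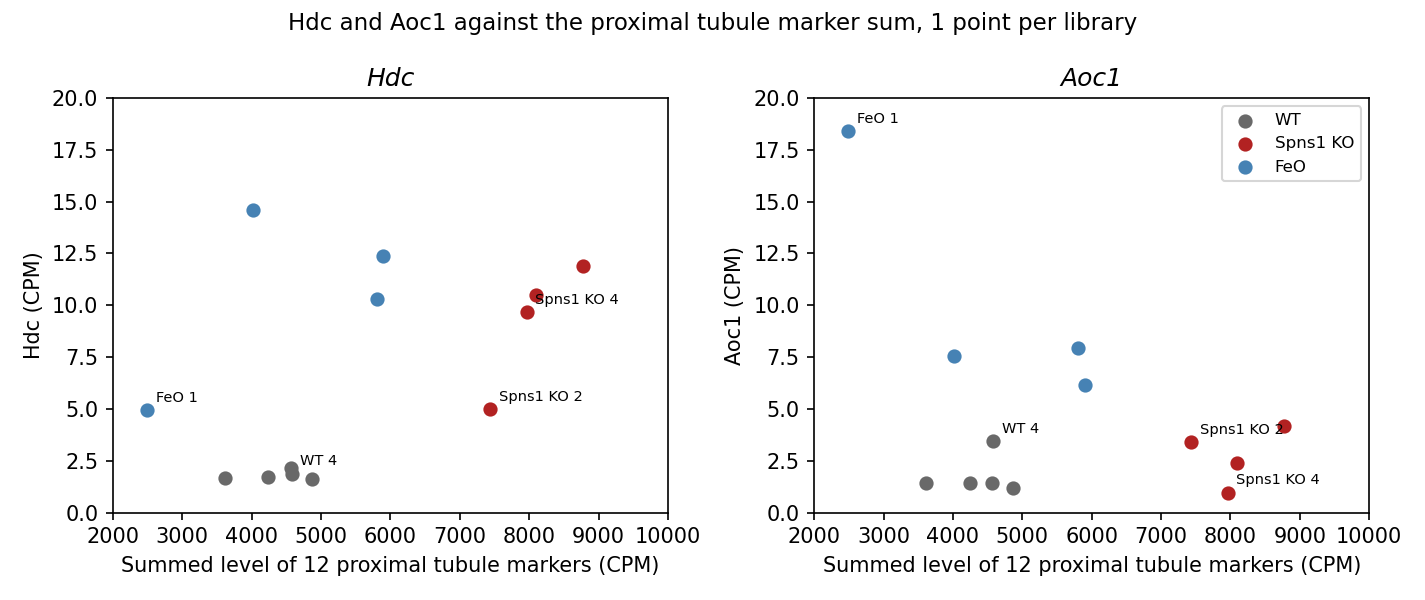
Hdc (left) and Aoc1 (right) in CPM against the summed CPM of 12 proximal tubule markers, with 1 point per library and some libraries named. The libraries labelled Spns1 KO had the highest marker sums, and FeO 1 combined the lowest marker sum with the highest Aoc1 level and the lowest Hdc level of the FeO libraries.

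Mast cells, basophils and neutrophils are known to express Hdc, so their markers were counted. The mast cell proteases Mcpt1 and Mcpt2, the basophil proteases Mcpt8 and Prss34, and Fcer1a, a chain of the IgE receptor, had 0 counts in all 13 libraries, which allows up to 3 counts per library. The proteases Cpa3, Cma1, Mcpt4, Tpsb2 and Tpsab1 reached at most 12, 7, 5, 8 and 3 counts in any library. Summed over the 7 mast cell protease genes, the libraries labelled Spns1 KO had 28, 0, 19 and 4 counts, WT 9, 10, 7, 3 and 10 counts, and FeO 9, 16, 7 and 7 counts. Cma1 had 7, 0, 4 and 1 counts under the Spns1 KO label, 0 in every WT library and 1 count in the FeO libraries together. Spns1 KO 2 had 184 counts of Hdc and 0 of these proteases, whereas Spns1 KO 1, with the most counts of Hdc (799), also had the most of the proteases (28). These counts were not corrected for library size, and Spns1 KO 1 had the most total counts of all libraries (71296474). In CPM, Hdc was highest in FeO 4 (14.6, against 11.9 in Spns1 KO 1). On that scale Cpa3, Cma1, Mcpt4 and Tpsb2 were higher in Spns1 KO 3 than in Spns1 KO 1, and Tpsab1 was lower. The part of mast cells in the rise of Hdc was not tested.

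Of the 14 mast cell markers, 4 had enough counts to be tested. Ms4a2, another chain of the IgE receptor with 10 to 68 counts per library, rose in the libraries labelled Spns1 KO (log2 fold change 1.12, standard error 0.32, edgeR adjusted p = 0.0223) and was at 0.57 in FeO (adjusted p = 0.175). Kit, the stem cell factor receptor, which is also made outside mast cells, fell in both (-0.80 and -0.66, edgeR adjusted p = 0.0242 and 0.0313), and Gata2 and Hpgds passed in neither. The whole list summed to 41.9 to 51.0 CPM in the libraries labelled Spns1 KO, 51.7 to 66.3 CPM in WT and 31.2 to 67.1 CPM in FeO. This sum is mainly that of Kit (9.94 to 35.7 CPM) and Gata2 (16.4 to 41.8 CPM), which other kidney cells also make, so it does not measure the mast cell content. Among basophil markers, Il3ra, a chain of the interleukin receptor that many blood cells carry, rose in the libraries labelled Spns1 KO (1.36, edgeR adjusted p = 0.00341), and Cd200r3 fell in FeO (-1.20, edgeR adjusted p = 0.0405).

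No neutrophil marker among the 4 tested passed in either comparison. Of 8 macrophage markers, 6 rose in FeO, where 22.4% of all genes tested rose, and 0 passed in the libraries labelled Spns1 KO, where 14.0% of all genes tested rose. In the direct contrast of the models 1 of the 8 passed, Cd14, a receptor for bacterial lipopolysaccharide, which was lower under the Spns1 KO label (-0.88, edgeR adjusted p = 0.0205) and is named after its value was seen. Their sum was 55.9 to 70.3 CPM in WT, 75.3 to 122 CPM in the libraries labelled Spns1 KO and 96.9 to 177 CPM in FeO, above WT in every library of both models. Since Hnmt and Hdc are also made in some myeloid cells, this stands beside their rise, and its part in it was not tested. The endothelial markers summed to 153 to 178 CPM in WT, 211 to 251 CPM in the libraries labelled Spns1 KO and 157 to 283 CPM in FeO. The fibroblast and pericyte markers summed to 80.2 to 118 CPM in WT, 125 to 165 CPM in the libraries labelled Spns1 KO and 60.5 to 131 CPM in FeO. Both sums were thus above WT in every library labelled Spns1 KO, and their part in the results was not tested.

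**Figure D3:**
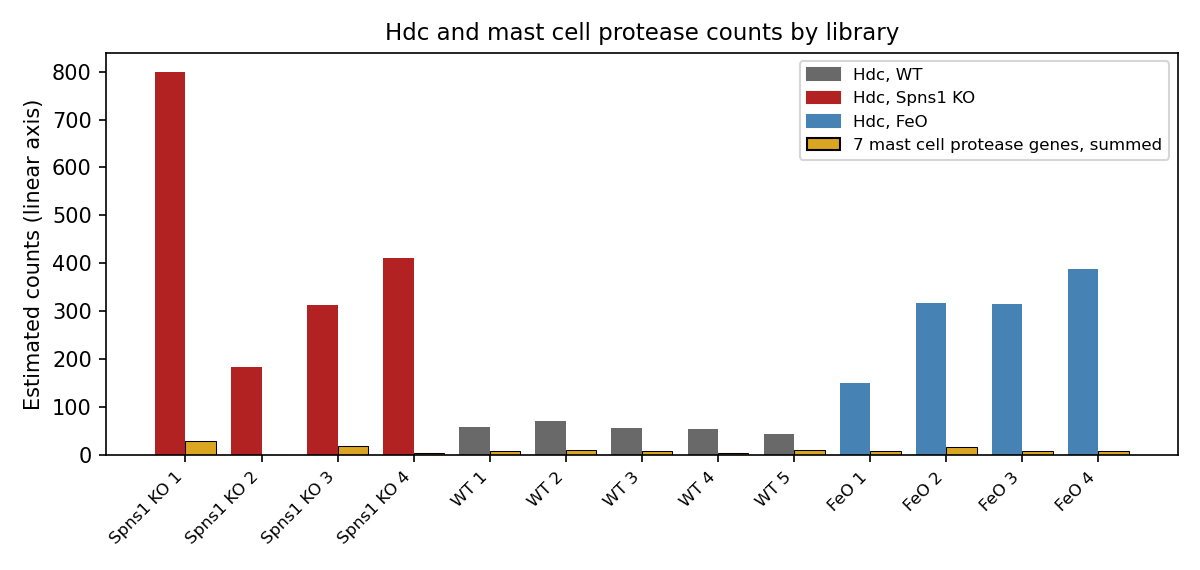
Estimated counts of Hdc (bars colored by group) and of 7 mast cell protease genes summed (yellow bars) in each library, on a linear axis, not corrected for library size. Hdc ranged from 43 to 799 counts and the protease sum from 0 to 28 counts.

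Beyond the 4 genes, 55 genes of histamine reception, transport and metabolism and of the neighboring histidine, amine and polyamine pathways were listed, of which 51 were tested. In the libraries labelled Spns1 KO 15 of these rose and 1 fell, or 31.4% called against 21.6% of all genes tested (7.55% down). In FeO 17 rose and 2 fell, or 37.3% called against 42.2% of all genes tested (19.7% down). The median log2 fold change of the list was 0.32 and 0.33, against -0.045 and -0.011 over all genes. The count in the libraries labelled Spns1 KO was 10 without Spns1 KO 1 and 25 without Spns1 KO 4, and the FeO count was 12 without FeO 3. With length and GC trends removed, 25.5% of the list and 15.7% of all genes were called in the libraries labelled Spns1 KO, and 27.5% and 33.7% in FeO. The calls lost in that fit were the rises of Aldh1b1, Cndp2, Oaz1 and Oaz2 in the former and of Slc22a2, Slc18a1, Aldh1b1, Aldh9a1, Hars, Sat1 and Slc22a4 in the latter. In each fit that left out 1 library, 8 of the 15 rises in the libraries labelled Spns1 KO and 10 of the 17 in FeO passed.

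The receptors through which histamine acts were near the limit of detection. Hrh1 and Hrh4 averaged 5.54 and 4.85 counts per library and were not tested. Hrh2, the receptor known for gastric acid secretion, had 11 to 46 counts and log2 fold changes of 0.08 in the libraries labelled Spns1 KO (edgeR adjusted p = 0.87) and -0.57 in FeO (adjusted p = 0.143). Hrh3 had 6 to 68 counts, with -0.24 and -1.31 (edgeR adjusted p = 0.80 and 0.117). Neither tested receptor was thus called in either model, with standard errors of 0.29 to 0.66.

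Among the other carriers of amines and organic cations listed, not all of which are known for histamine, the neighbor of Slc22a3 on chromosome 17 rose in both models. Slc22a2, a basolateral organic cation transporter of the proximal tubule, rose from 21.1 ± 3.12 CPM in WT (SD, n = 5) to 54.3 ± 8.62 CPM under the Spns1 KO label (SD, n = 4; log2 fold change 1.36, standard error 0.26, edgeR adjusted p = 0.00241). In FeO it rose by 0.84 (edgeR adjusted p = 0.0168), a call lost with the length and GC trends removed, and FeO 1, at 19.1 CPM, lay inside the WT range. Slc18a1, a vesicular monoamine transporter, rose by 0.91 and 0.61 (edgeR adjusted p = 0.0138 and 0.0491), the latter held in only 3 of the 13 fits that left out 1 library. The vesicular carrier of mast cells, Slc18a2, averaged 7.92 counts and was not tested, and Slc29a4 passed in neither model (0.27 and 0.69, edgeR adjusted p = 0.704 and 0.258). Slc22a4, a carrier of ergothioneine from the same family, rose in both (0.64 and 0.53, edgeR adjusted p = 0.00489 and 0.00642).

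Of the 8 genes that oxidize methylated histamine or the aldehydes from it, 6 rose in the libraries labelled Spns1 KO and 4 in FeO. None fell in either, and 14.0% and 22.4% of all genes tested rose. Of the 12 proximal tubule markers, 8 rose in the libraries labelled Spns1 KO, and in FeO 2 rose and 1 fell. The part of these markers in the rise of the 8 genes was not tested. Maob, the monoamine oxidase that acts on methylhistamine, was at 2.40, 1.88, 2.36, 3.07 and 3.55 CPM in WT, at 4.64, 10.3, 5.94 and 3.94 CPM in the libraries labelled Spns1 KO and at 8.07, 4.77, 8.20 and 6.48 CPM in FeO. The WT range ended below the lowest library of either model, as for 13.1% of all genes tested in the libraries labelled Spns1 KO and 16.9% in FeO. The log2 fold changes were 1.22 (standard error 0.29, edgeR adjusted p = 0.00762) and 1.38 (standard error 0.29, edgeR adjusted p = 0.0018). Both passed in every fit that left out 1 library. Its neighbor on the X chromosome, Maoa, rose in the libraries labelled Spns1 KO (0.78, edgeR adjusted p = 0.0154) and was at 0.24 in FeO (adjusted p = 0.368).

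Of the 6 aldehyde dehydrogenases listed, Aldh2 and Aldh7a1 passed in the direct contrast of the models. Aldh2, the mitochondrial enzyme of acetaldehyde oxidation, went from 124 ± 30.1 CPM in WT (SD, n = 5) to 313 ± 61.6 CPM under the Spns1 KO label (SD, n = 4), a log2 fold change of 1.33 (edgeR adjusted p = 0.0011), and was at 0.40 in FeO (adjusted p = 0.151). Aldh7a1 rose by 1.01 in the libraries labelled Spns1 KO (edgeR adjusted p = 0.000592) and was at -0.036 in FeO (adjusted p = 0.857). For both genes the difference between the models passed the thresholds (0.93 and 1.05, edgeR adjusted p = 0.0191 and 0.00246). Aldh1a1, which makes retinoic acid, rose in FeO (1.37, edgeR adjusted p = 0.016) and was at 1.09 in the libraries labelled Spns1 KO (adjusted p = 0.07). Aldh9a1 and Aldh1b1 rose in both (0.79 and 0.55, then 0.74 and 0.59), of which only the rise of Aldh9a1 in the libraries labelled Spns1 KO also passed with length and GC trends removed.

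**Figure D4:**
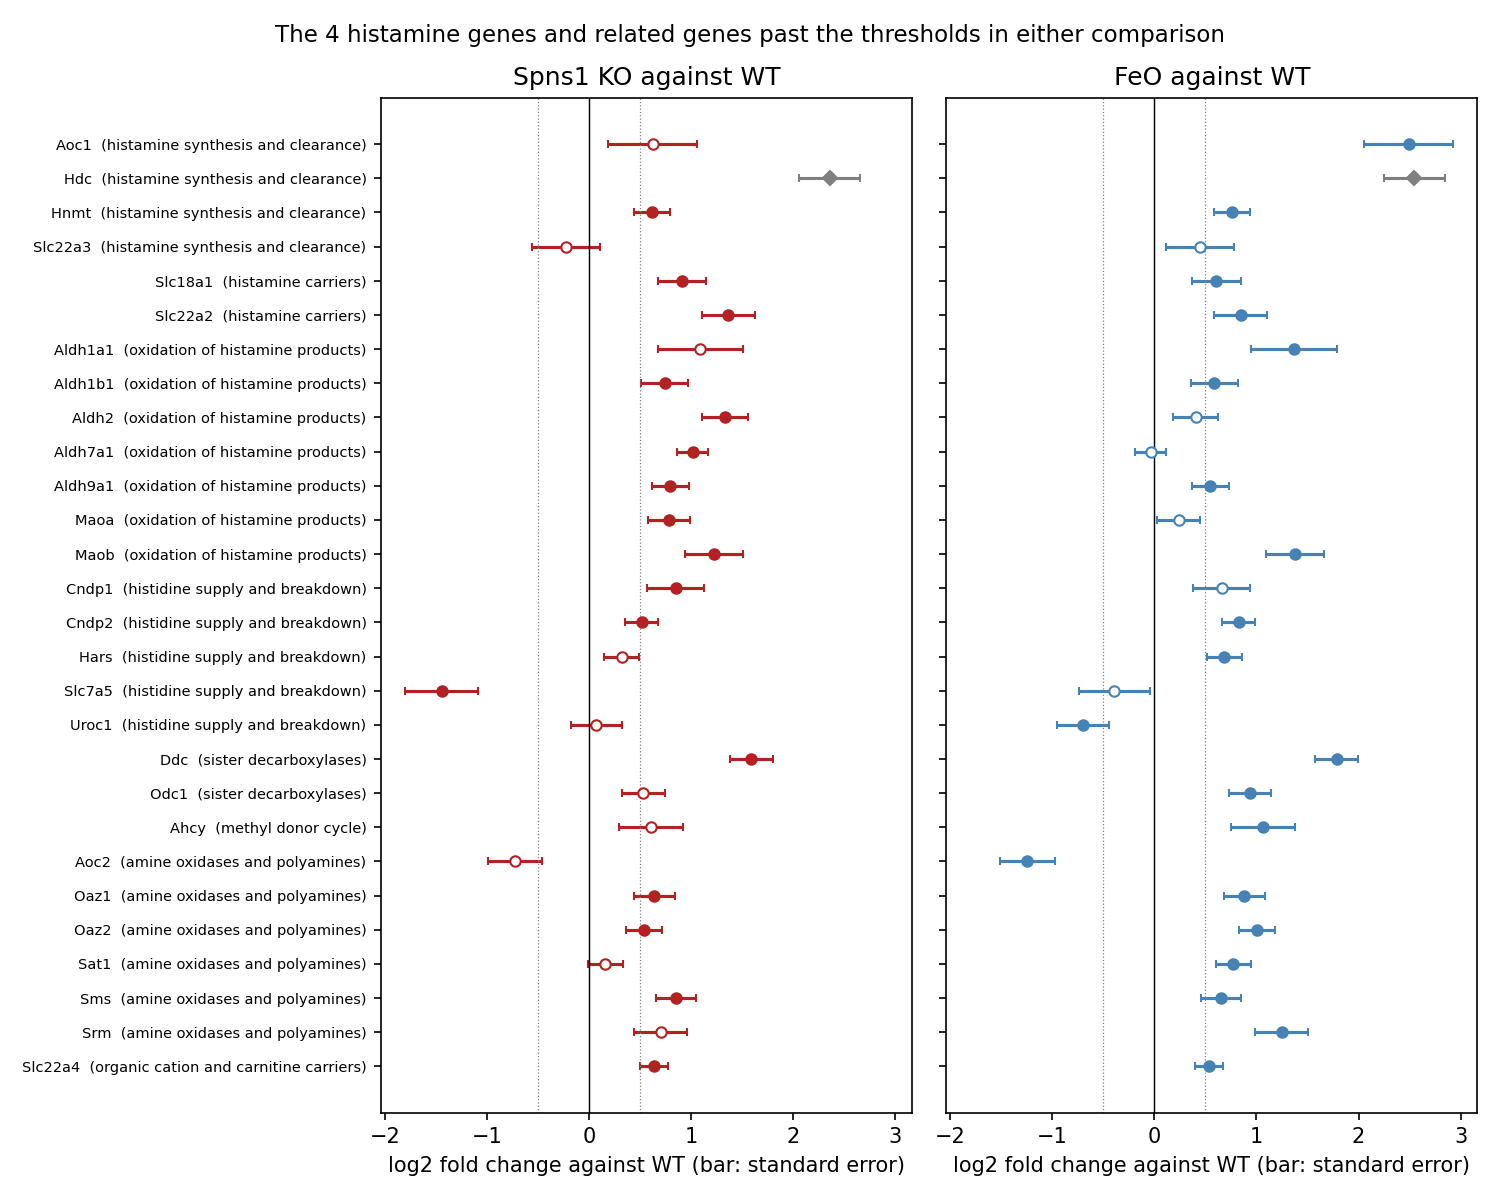
Log2 fold change against WT, with standard error, in the libraries labelled Spns1 KO (left) and in FeO (right) for the 4 genes and for every related gene past the thresholds in either. Filled circles passed (adjusted p under 0.05 and beyond 0.5, dotted lines), open circles did not, and Hdc is a grey diamond because it was not tested.

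Histidine, the substrate of Hdc, is supplied by uptake and by cleavage of carnosine and is otherwise broken down through urocanate. Of these 14 genes, 2 rose and 1 fell in each model, or 21.4% called, against 21.6% of all genes tested in the libraries labelled Spns1 KO and 42.2% in FeO. Slc7a5, the light chain of a large neutral amino acid transporter that carries histidine, fell by 1.45 in the libraries labelled Spns1 KO (edgeR adjusted p = 0.00993), where all 4 lay below all WT libraries (9.38% of all genes did), and was at -0.39 in FeO (adjusted p = 0.362). The carnosinases Cndp1 and Cndp2 rose in the libraries labelled Spns1 KO (0.85 and 0.51, edgeR adjusted p = 0.0376 and 0.0311), each passing in 7 of 13 leave-one-out fits, and Cndp2 rose in FeO (0.82, edgeR adjusted p = 0.0012). Hars, the histidyl-tRNA synthetase, rose in FeO (0.69, edgeR adjusted p = 0.0051), and Uroc1, urocanate hydratase, fell there by 0.70 (edgeR adjusted p = 0.0356).

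Ddc, the aromatic amino acid decarboxylase and the closest relative of Hdc among the 6 decarboxylase genes listed, also rose in both models. Its WT libraries held at most 20.1 CPM, those labelled Spns1 KO 34.6 to 61.0 CPM and those of FeO 42.5 to 76.8 CPM. Neither model overlapped with WT, and 13.1% (Spns1 KO label) and 16.9% (FeO) of all genes tested lay above WT in this way. The log2 fold changes were 1.59 and 1.78 (standard errors 0.21, edgeR adjusted p = 0.000401 and 0.000313), and both calls passed in each fit that left out 1 library. Odc1, which makes putrescine, a substrate of Aoc1, rose in FeO (0.93, edgeR adjusted p = 0.00265) and was at 0.53 in the libraries labelled Spns1 KO (adjusted p = 0.0753). None of the glutamate and cysteine sulfinate decarboxylases Gad1, Gad2, Csad and Gadl1 passed in either comparison. Of the Odc1 sequence, 31.3% is shared with other genes, mainly Gm7993.

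Of 10 genes of amine oxidation and polyamines, 5 rose and 1 fell in FeO (60% called, against 42.2% of all genes tested), and 3 rose in the libraries labelled Spns1 KO (30% against 21.6%). The difference between these counts was not tested. Srm, spermidine synthase, rose by 1.25 in FeO (edgeR adjusted p = 0.00177) and was at 0.70 in the libraries labelled Spns1 KO (adjusted p = 0.0614). Sms, spermine synthase, and the antizymes Oaz1 and Oaz2, which restrain Odc1, rose in both models (0.65 to 1.00 in FeO and 0.54 to 0.85 in the libraries labelled Spns1 KO). Sat1, the enzyme of polyamine acetylation, rose in FeO (0.77, edgeR adjusted p = 0.00261) and was lower in the libraries labelled Spns1 KO than in FeO (-0.61, edgeR adjusted p = 0.0355). Aoc2, a relative of Aoc1, fell by 1.25 in FeO (edgeR adjusted p = 0.00221) and was at -0.72 in the libraries labelled Spns1 KO (adjusted p = 0.058). Of the 5 tested genes of the methyl donor cycle that supplies Hnmt, only Ahcy, which removes the product of methyl transfer, was called, with a rise of 1.06 in FeO (edgeR adjusted p = 0.0132), and 71.4% of its sequence is shared with other genes. Between the models, 3 of the 51 genes were higher under the Spns1 KO label and 1 was lower, or 7.84% against 14.9% of all genes tested. Beside the genes above, Slc47a1, a proton-coupled exporter of organic cations, was the last of these (0.88, edgeR adjusted p = 0.043), and it is named here after its values were seen.

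The genes whose profile over the 13 libraries was most like that of Hdc were found by the root mean square difference of log2 CPM. Profiles were centered on the WT mean, and the 12207 genes averaging 100 counts or more were compared. The measure depends on the size of the rise over WT, for which Hdc was chosen, so the list is a description with no test. They were Defb29, a beta-defensin (0.587), Cyp2a4, a steroid hydroxylase (0.633), Gm10443 (0.642), Vkorc1, the vitamin K epoxide reductase (0.683), and Slc22a7, an organic anion transporter (0.705), against a median of 1.89 over the genes compared. Hnmt was at 1.39 and Aoc1 at 1.32, and neither was among the 5 closest. The smaller rise of Hnmt over WT by itself sets it apart from Hdc on this measure. Slc22a3, at 1.92, averaged 68.9 counts and so was not among the genes compared. Of the 5, Cyp2a4, Gm10443 and Vkorc1 share 58.9%, 100% and 46.0% of their sequence with other genes, so their counts are uncertain, whereas Slc22a7 shares 0%. Slc22a7 went from 11.9 ± 2.80 CPM in WT (SD, n = 5) to 47.0 ± 16.1 CPM in the libraries labelled Spns1 KO and 45.9 ± 29.0 CPM in FeO (SD, n = 4 each).

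The gene next to Hdc on chromosome 2, Slc27a2 (chr2:126552407-126588243), a fatty acid carrier of the proximal tubule, passed in neither model (log2 fold change 0.73 and 0.65, edgeR adjusted p = 0.0744 and 0.0717).

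**Figure D5:**
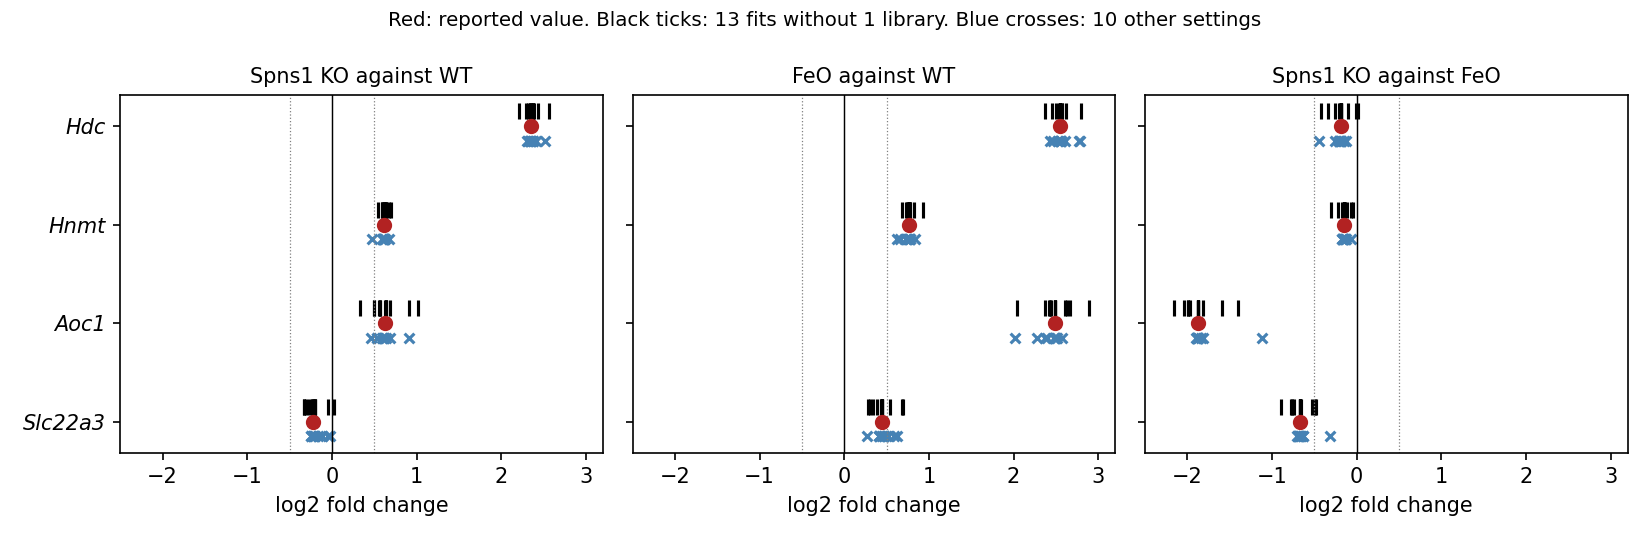
Log2 fold changes of the 4 genes in the 3 comparisons as reported (red), in 13 fits that each left out 1 library (black ticks) and under 10 other settings (blue crosses), with dotted lines at 0.5 on either side. Hdc stayed above 2 against WT in both models under all of them, and Aoc1 varied most between the models. Hdc was chosen for this rise in the same libraries, so its stability describes the fits only.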

How the data were processed

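Nascent kidney RNA was measured in 13 libraries. The authors deposited estimated counts per gene symbol, not normalized and given as whole numbers. The submitters' processing notes name bcl2fastq 2.19, kallisto 0.44.0, DESeq2 and GRCm38, whereas the methods name STAR and HTSeq on mm10, and which of these made the counts is not given in the sources used here. Estimated counts were tested with edgeR 4.0.16 (R 4.3.3) in a single fit of 3 groups over 13 libraries, with TMM factors, filterByExpr (16468 of 35013 genes kept), the quasi-likelihood test and Benjamini-Hochberg adjustment. A gene was called at adjusted p under 0.05 and log2 fold change beyond 0.5. CPM values were scaled with TMM factors. DESeq2 1.42.0, limma 3.58.1, other scalings and filters, a replicate block, removal of length and GC trends and omission of each library were the alternatives. The fit was tested on simulated data with 200 genes changed in Spns1 KO against WT. It recovered 60.6% of 2-fold and 96% of 4-fold changes, with 9 false calls, so part of the 2-fold changes was missed.

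The 4 genes, the related lists and the marker lists were chosen with earlier results of these data known. One related gene is not reported here. The text names the 4 genes, related genes called against WT, receptors, carriers and monoamine oxidases whether called or not, defining markers, and the 5 genes most like Hdc by profile. Gene positions, longest transcripts and shared stretches of 31 bases came from GENCODE M21 and promoters from RefSeq, where all 4 genes matched. Intervals are at 95% and, like the limit of 3 counts for a count of 0, cover the model's or counting error only. Figures were drawn with matplotlib 3.10.9 in Python 3.11.15.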

Additional observations from a re-analysis of the deposited data

Results flagged for a closer look

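Among 147 sets of values of a named gene in a group of 4 or 5 libraries, 10 held a library far from the others by Dixon's test at 95%, and chance alone marks about 1 set in 20. Aoc1 was at 3.46 CPM in WT 4, against 1.17 to 1.45 CPM in the other WT libraries. It was at 18.4 CPM in FeO 1, against 6.15 to 7.95 CPM in the other FeO libraries. Aldh2 was at 221 CPM in Spns1 KO 4, against 337 to 349 CPM in the others of that label. Aldh9a1 was at 113 CPM in WT 3 (others 131 to 133 CPM), Cndp1 at 13.7 CPM in Spns1 KO 1 (others 6.01 to 7.01 CPM) and Slc7a5 at 43.2 CPM in WT 5 (others 25.8 to 28.4 CPM). Gad1 was at 3.54 CPM in FeO 1 (others at most 1.59 CPM) and Gadl1 at 0.678 CPM in WT 2 (others 0.353 to 0.425 CPM). Gata2 was at 27.5 CPM in Spns1 KO 2 (others 22.2 to 23.0 CPM) and at 36.3 CPM in WT 5 (others 26.0 to 28.1 CPM).

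The effect of the models over WT differed for 7 named genes by the direct contrast of the libraries labelled Spns1 KO with FeO in edgeR. In the same contrast 14.9% of all 16468 genes tested were called, so these 7 are listed without a claim about the named genes as a set. The log2 difference was -1.87 for Aoc1 (edgeR adjusted p = 0.0153), 0.929 for Aldh2 (adjusted p = 0.0191), 1.05 for Aldh7a1 (adjusted p = 0.00246) and -0.612 for Sat1 (adjusted p = 0.0355). It was 0.884 for Slc47a1 (edgeR adjusted p = 0.043), 1.02 for Il3ra (adjusted p = 0.0314) and -0.884 for Cd14 (adjusted p = 0.0205). No cause was tested for any of these.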

How the results depend on the processing

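Leaving out 1 library at a time, Hdc over WT ranged from 2.21 to 2.56 in the libraries labelled Spns1 KO and from 2.38 to 2.80 in FeO (log2), and Hnmt from 0.54 to 0.70 and from 0.68 to 0.93. Aoc1 ranged from 0.33 to 1.02 and from 2.04 to 2.89 and Slc22a3 from -0.33 to 0.029 and from 0.28 to 0.70, positive in the former only without WT 5. Between the models, Hdc ranged from -0.42 to 0.017, Aoc1 from -2.16 to -1.40, Hnmt from -0.30 to -0.044 and Slc22a3 from -0.89 to -0.48. The replicate numbers do not pair the libraries, as same-numbered deviations correlated between -0.296 and 0.256. With a replicate block Hnmt in the libraries labelled Spns1 KO was at 0.59 (adjusted p = 0.0536) and lost its call, as it did with length and GC trends removed (0.47). The block changed no other call of the 4 genes.

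Leaving out both FeO 1 and Spns1 KO 4, chosen after seeing the data, gave 0.91 for Aoc1 in the libraries labelled Spns1 KO and -1.12 between the models, 26 related genes called in place of 16, and 2913 genes down in the libraries labelled Spns1 KO. The last count was 1243 as reported, 793 with no filter, 798 with trends removed and 504 to 2677 without 1 library. Without 1 library the genes up there ranged from 1531 to 3003 (2307 as reported), and the related genes called from 10 to 25, or 12 to 21 in FeO (19 as reported). Genes down in FeO numbered 2127 with trends removed (3252 as reported). Between the models, genes up and down numbered 1113 and 1334 as reported, 441 and 599 from those 2 groups alone, 493 and 544 without both libraries, and 545 to 1457 and 636 to 1630 without 1 library. The cause of these shifts was not tested. Low counts of Slc22a3 and the receptors limit what could be detected.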
